A study of Homo sapiens with 15 samples.

Results

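The regions described here are the sites on human chromosome 19 at which BMAL1 was detected in 786-O cells expressing a control shRNA (shControl). They were taken from the deposited peak list for BMAL1 in shControl cells as every peak on that chromosome, which gave 267 of 1812 peaks (14.7%, 95% Wilson interval 13.2% to 16.4%). Binding was measured by CUT&RUN, in which an antibody brings a nuclease to a chromatin protein so that the DNA beneath it is cut free and sequenced. 786-O is an established clear cell renal cell carcinoma line that lacks functional VHL, so that HIF2α is stable without hypoxia. All cells carried a lentiviral pLKO.1 shRNA and were selected in puromycin, and the shRNA was either a scrambled sequence (shControl) or directed against BMAL1 (shBMAL1).

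The 15 libraries form 6 groups by shRNA and antibody. BMAL1 was profiled in 3 shControl and 2 shBMAL1 libraries, HIF2α in 3 libraries of each kind of cell, and an IgG control, which is not analysed here, in 2 of each. The authors' lists pool the libraries of a group, so each group has 1 list, and a Fisher's exact test over peaks measures the number of peaks and not the spread between cultures. Per the methods, a further shBMAL1 library for BMAL1 was dropped for its low number of reads. The lists hold no read totals, so the depth behind each peak is not known from them, and a site absent from a list may carry signal below the calling threshold. Chromosome 19 held 162 of 768 BMAL1 peaks in shBMAL1 cells (21.1%), 42 of 1204 HIF2α peaks in shControl cells (3.49%) and 35 of 1089 HIF2α peaks in shBMAL1 cells (3.21%).

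BMAL1 is a bHLH-PAS transcription factor of the circadian clock. With its partner CLOCK it binds the E-box, a palindromic hexamer found in promoters of clock output genes. HIF2α belongs to the same protein family and, with ARNT, binds hypoxia response elements whose core shares bases with the E-box. Chromosome 19 is the most gene-dense human chromosome and carries large tandem arrays of zinc finger genes, many of which encode KRAB repressors of transposable elements.

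Sequences below are from hg19, written 5′ to 3′ on the plus strand, and are shown because the comparisons on the E-box, on BMAL1 depletion and on HIF2α turn on them. An E-box (CACGTG) lay within 100 bp of the summit in 19 of the 267 peaks. The 5 strongest E-box peaks that were also called in shBMAL1 cells are given first, with the E-box nearest the summit in capitals. Strength is ranked by p here and below. They lie upstream of AP3D1 (chr19:2151864-2151923), BLOC1S3 (chr19:45681745-45681804), TIMM44 (chr19:8008883-8008942), EML2 (chr19:46119491-46119550) and NAPA (chr19:48018502-48018561).
AP3D1: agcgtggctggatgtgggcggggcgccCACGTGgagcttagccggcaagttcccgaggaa
BLOC1S3: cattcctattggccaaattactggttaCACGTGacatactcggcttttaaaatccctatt
TIMM44: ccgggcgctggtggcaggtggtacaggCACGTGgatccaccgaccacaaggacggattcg
EML2: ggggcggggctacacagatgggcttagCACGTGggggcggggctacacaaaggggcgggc
NAPA: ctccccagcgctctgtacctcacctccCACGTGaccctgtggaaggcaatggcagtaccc

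Strong E-box peaks that were absent from the shBMAL1 list lie at TLE6 (chr19:2977395-2977454), ODAD1 (chr19:48825316-48825375), EXOSC5 (chr19:41903321-41903380) and CD22 (chr19:35810079-35810138). The E-box nearest the summit is again in capitals, and the CD22 window holds another, left in lower case.
TLE6: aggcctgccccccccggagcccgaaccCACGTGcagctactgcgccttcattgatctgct
ODAD1: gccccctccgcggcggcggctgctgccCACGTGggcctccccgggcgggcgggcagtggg
EXOSC5: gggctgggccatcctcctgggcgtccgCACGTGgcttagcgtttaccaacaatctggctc
CD22: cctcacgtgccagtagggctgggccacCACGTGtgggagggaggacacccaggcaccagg

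None of the 10 strongest chromosome 19 peaks held an E-box at the summit, where 7.12% of all 267 peaks did. Of these 10 windows, 9 held the GC box GGGCGG or its complement, where 81.3% of all 267 did. Counts in 10 peaks were not tested against these shares. The GC box is the type of element bound by SP and KLF factors. The copy nearest the summit is in capitals below, and further copies, as at LMTK3 and SNAPC2, are left in lower case. The windows are those of LMTK3 (chr19:48996285-48996344), PLAUR (chr19:44172903-44172962), SNAPC2 (chr19:7985665-7985724) and KLHL26 (chr19:18747663-18747722). The strongest peak, at FBXL12 (chr19:9929915-9929969), was the exception, and the capital letter there marks the summit base.
LMTK3: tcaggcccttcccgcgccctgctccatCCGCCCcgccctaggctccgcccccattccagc
PLAUR: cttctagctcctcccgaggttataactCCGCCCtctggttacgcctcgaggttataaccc
SNAPC2: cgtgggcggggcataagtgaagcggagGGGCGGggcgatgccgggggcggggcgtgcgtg
KLHL26: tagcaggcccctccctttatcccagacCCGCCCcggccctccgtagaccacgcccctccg
FBXL12: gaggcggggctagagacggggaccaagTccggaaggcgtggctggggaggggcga

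Chromosome 19 had more BMAL1 peaks per megabase than any other chromosome. It carried 4.52 peaks per Mb, 3.16 times the density of chromosome 16, the next in order, which had 1.43 per Mb. Its 1480 protein-coding genes lie at 25.03 per Mb, which is also the highest gene density of any chromosome. Per 100 protein-coding genes chromosome 19 had 18.04 peaks, against 15.0 on chromosome 16, 14.6 on chromosome 7 and 8.28 over all other chromosomes together. A peak midpoint fell in the promoter of 220 of the 1480 genes (14.9%, interval 13.1% to 16.8%), where a promoter runs from 1000 bp upstream to 100 bp downstream of an annotated start site. The share over all 20136 protein-coding genes was 6.10%, and over the genes of the other chromosomes 5.41% (interval 5.09% to 5.74%).

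**Figure D1:**
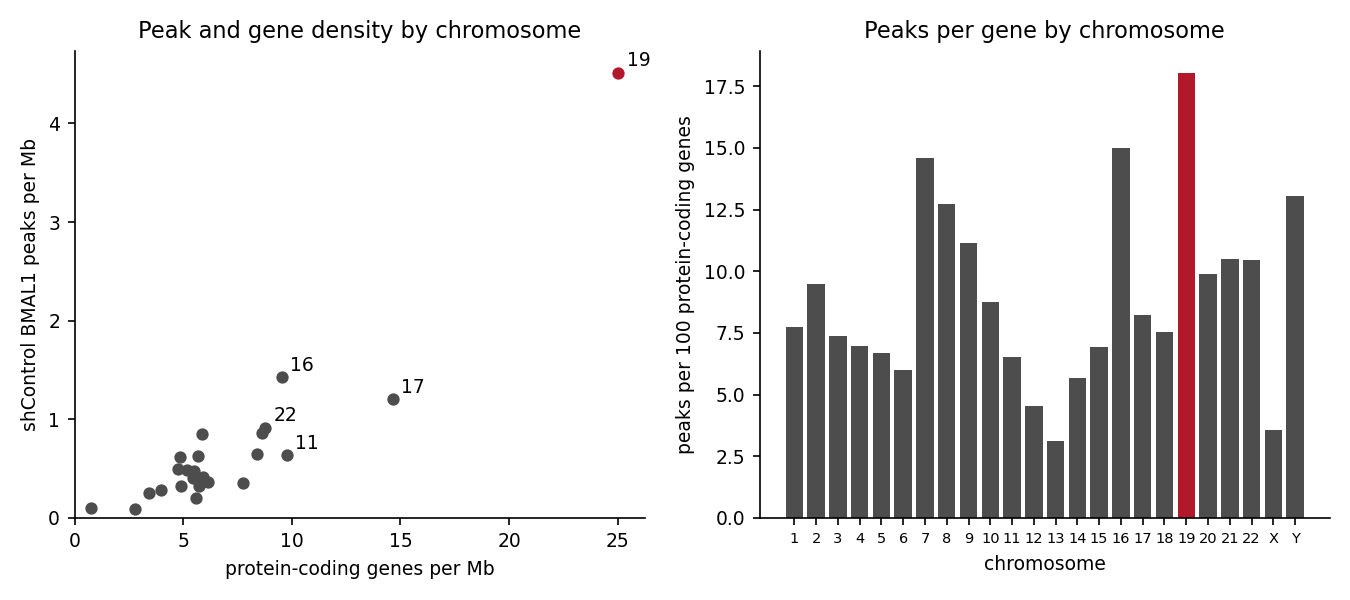
Left, shControl BMAL1 peaks per Mb against protein-coding genes per Mb, 1 point per chromosome with 5 chromosomes named; right, peaks per 100 protein-coding genes for each chromosome. Chromosome 19 (red) lies highest on both measures, at 4.52 peaks per Mb and 18.04 peaks per 100 genes, with chromosome 16 next at 1.43 and 15.0.

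The peaks were stronger than those elsewhere. Fold enrichment, the deposited ratio over local background, had a median of 9.48 on chromosome 19 (quartiles 6.34 and 14.7) and 6.96 on the other chromosomes (quartiles 5.43 and 9.61). The median −log10 p was 36.2 against 21.6, and the median width 299 bp against 232 bp. Median GC content of the 200 bp summit windows was 66.5% and 65.0%. Chromosome 19 ranked first of all chromosomes in median fold enrichment.

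The 10 peaks of smallest p were at genes of unrelated function. The strongest lay 279 bp upstream of FBXL12, an F-box subunit of SCF ubiquitin ligases, at 32.1-fold in shControl cells and 24.3-fold in shBMAL1 cells. At PLAUR, the urokinase receptor, the peak was 37.0-fold, the highest fold on the chromosome, and it was 67.8-fold in shBMAL1 cells. The peak at SNAPC2, a subunit of the complex that starts snRNA transcription, stood at 20.8-fold and 29.8-fold in the same order. At RELB, an NF-κB subunit, the values were 36.9-fold and 21.9-fold. The other 6, with values in the same order, each had a higher fold in shBMAL1 cells. They lay at the kinase gene LMTK3 (23.1-fold and 45.5-fold), KLHL26 (26.6-fold and 33.9-fold) and FIZ1 (26.4-fold and 28.1-fold). The rest of the 6 were the liprin gene PPFIA3 (27.2-fold and 33.9-fold), the mitochondrial AlkB homologue ALKBH7 (34.5-fold and 45.4-fold) and the RNA-binding protein gene CELF5 (33.2-fold and 44.6-fold). All 10 were also called in shBMAL1 cells, and none overlapped a HIF2α peak. Strong peaks in general were called again. In the strongest quintile of the whole list by p, 95.2% of chromosome 19 peaks and 88.5% of the others were. In that quintile 3.57% and 15.4% overlapped a HIF2α peak of shControl cells. Over the whole list the shares were 38.7% for BMAL1 and 18.5% for HIF2α. The fold values of different lists were set against the background of each list, so they are given side by side and not tested. The paper reports that peaks remaining after BMAL1 depletion were weaker, so a higher fold here is not read as more binding.

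Along the chromosome the peaks followed the gene-rich arms. Windows of 5 Mb held 43, 39, 29 and 27 peaks from the short-arm end to 20 Mb, 1 peak from 20 to 25 Mb and none from 25 to 30 Mb. The window from 20 to 25 Mb has 36 protein-coding genes, 33 of them ZNF genes, and that from 25 to 30 Mb has 1 gene. On the long arm the windows held 4 peaks from 30 to 35 Mb, then 25, 14, 43, 32 and 10 to the end. Per 100 genes the count was highest from 5 to 10 Mb (30.2) and lowest, among windows with over 100 genes, in the last one (6.21), in which 59 of 161 genes are ZNF genes. The widest empty stretch between midpoints was 5.83 Mb and spanned the centromere.

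Peaks lay close together. The median spacing of neighbouring midpoints was 69.0 kb, against 469 kb on the other chromosomes. A cluster was counted where 3 or more peaks followed each other at 100 kb or less. By that count 168 peaks (62.9%, interval 57.0% to 68.5%) fell in 38 clusters, while all other chromosomes together had 315 of 1545 peaks (20.4%) in 81 clusters. Chromosome 16 was next, with 35.7%. A fixed distance limit counts more clusters where peaks are denser, and chromosome 19 had 8.88 times the peaks per Mb of the others together. Clustering beyond that density was not tested. Of the gaps between neighbours, 8.27% were within 10 kb on chromosome 19 and 6.11% elsewhere. The clusters of chromosome 19 held 3 to 9 peaks, and 26 of the 38 held 3 or 4. Every peak was retained, that is, overlapped a peak of the shBMAL1 BMAL1 list, in 7 clusters, and no peak was retained in 3. The share in clusters was 37.5% with a 50 kb limit and 49.5% over peaks with p at or under 1e-20.

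The largest cluster held 9 peaks over 287 kb (chr19:45909168-46195897), 4 of them retained. In it the promoter peaks of PPM1N (18.4-fold), EML2, a microtubule-associated protein (14.9-fold), and ERCC1, a nuclease subunit of excision repair (9.45-fold), were retained, as was a peak of 9.42-fold 873 bp downstream of an EML2 start site. The remaining 5, at PPP1R13L and POLR1G, in ERCC1, OPA3 and GIPR, and at the splicing gene SNRPD2, had folds of 5.75 to 6.36 and were absent from the shBMAL1 list. A cluster of 8 peaks over 305 kb (chr19:10676675-10982165) ran from KRI1 to CARM1. There the promoters of CARM1, an arginine methyltransferase (33.0-fold), and TMED1 (14.9-fold) and an intronic site of DNM2, the endocytic GTPase dynamin 2 (11.2-fold), were retained. Peaks at KRI1, the cell-cycle inhibitor CDKN2D and 2 more sites at DNM2, at 4.45-fold to 10.6-fold, were not. The other cluster of 8 (chr19:38754725-38893769) held retained peaks at SPINT2 (8.11-fold), CATSPERG (8.11-fold and 23.5-fold, under 1 wider peak in shBMAL1 cells) and GGN (22.5-fold). A second SPINT2 site and sites at C19orf33, the proteasome gene PSMD8 and FAM98C, at 5.88-fold to 9.42-fold, were absent from that list. In each of these clusters the peak of highest fold was retained.

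Most of the peaks were at promoters. The midpoint lay in a promoter of any annotated gene in 194 of 267 peaks (72.7%, interval 67.0% to 77.7%), against 960 of 1545 on the other chromosomes (62.1%, interval 59.7% to 64.5%). The difference was 10.5 percentage points (interval 4.40 to 16.1, Fisher's exact test, two-sided, p = 0.00169 after Benjamini-Hochberg adjustment over the 11 Fisher tests made). Chromosomes 17, 11 and 16, the 3 other autosomes with most genes per Mb, had 68.1% (213 of 313). The difference from these was 4.61 points (interval −2.88 to 11.9, exact adjusted p = 0.261). It passed the test when only protein-coding start sites were counted (10.7 points, exact adjusted p = 0.0122) or when promoters reached 2500 bp to each side (11.2 points, exact adjusted p = 7.71e-04). Over peaks with p at or under 1e-20 it was 4.69 points against all others (exact adjusted p = 0.229).

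The median distance to the nearest protein-coding start site was 211 bp, and 257 of 267 midpoints (96.3%) lay within 10 kb of one, against 74.7% on the other chromosomes. Outside promoters, 50 peaks lay in introns of protein-coding genes, 15 between genes, 5 in UTRs and 3 in coding exons. Of the 188 peaks in a promoter of a protein-coding gene, 36 (19.1%) lay in promoters of 2 or more genes, such as HMG20B and MFSD12 (28.5-fold) or MBOAT7 and TSEN34 (31.2-fold). The 3 peaks farthest from a start site were 187751 bp from ZNF254, 67344 bp inside SIPA1L3 and 56011 bp inside GNG7. None of the 3 was retained. The ZNF254 peak (chr19:24474666-24474812) was the last before the empty centromeric stretch, and its window had 34.5% GC, the lowest on the chromosome. Its −log10 p of 66.9 came with a fold of only 6.27, and HIF2α was called there in shControl cells at 8.80-fold.

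After BMAL1 depletion more of the chromosome 19 peaks were still called than elsewhere. Over the whole list 38.7% of shControl BMAL1 peaks overlapped a BMAL1 peak of shBMAL1 cells by at least 1 bp. On chromosome 19 the number was 154 of 267 (57.7%, interval 51.7% to 63.4%), and on the other chromosomes 547 of 1545 (35.4%, interval 33.1% to 37.8%). The difference was 22.3 points (interval 15.8 to 28.5, Fisher's exact test, adjusted p = 5.79e-11). Against chromosomes 17, 11 and 16, where 117 of 313 peaks were retained (37.4%), it was 20.3 points (interval 12.2 to 28.1, exact adjusted p = 3.33e-06). Only chromosome 20 had a higher share (61.1% of 54 peaks).

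Peak strength moved with that difference. The strongest quintile of the whole list held 31.5% of the chromosome 19 peaks and 18.1% of the others, the weakest 8.24% and 22.01%. In the strongest quintile 80 of 84 chromosome 19 peaks were retained (95.2%, interval 88.4% to 98.1%) against 88.5% of the others. In the next the shares were 61.3% and 60.3%, in the third 36.4% and 20.7%, in the fourth 13.5% and 12.9%, and in the weakest 18.2% and 6.47%. Within quintiles of p the difference was 6.20 points (Cochran-Mantel-Haenszel chi-square test, adjusted p = 0.0237). Within quintiles the difference from the gene-dense chromosomes was 3.64 points (the same chi-square test, adjusted p = 0.274). With each list held to its 768 strongest peaks, retention on chromosome 19 was 6.30 points above all others (exact adjusted p = 0.141) and differed by −1.02 points from the gene-dense chromosomes (exact adjusted p = 0.886).

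**Figure D2:**
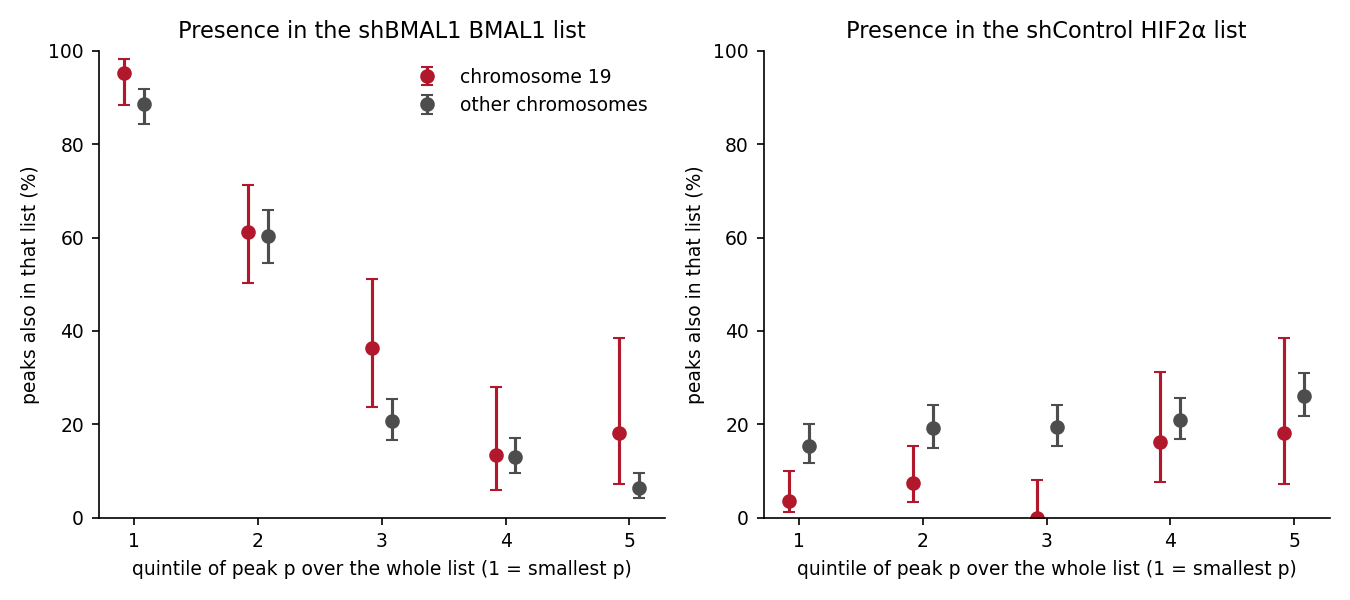
Share of shControl BMAL1 peaks that were also in the shBMAL1 BMAL1 list (left) and in the shControl HIF2α list (right), by quintile of peak p, for chromosome 19 (red) and the other chromosomes (grey), with 95% Wilson intervals. Retention on chromosome 19 goes from 95.2% in the strongest quintile to 18.2% in the weakest and its intervals overlap those of the other chromosomes in each of the 5, while HIF2α overlap is lower on chromosome 19 in every quintile.

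Within chromosome 19, retained peaks had a median fold of 12.5 (quartiles 9.41 and 20.2) and lost peaks, those with no overlap in the shBMAL1 list, a median of 6.49 (quartiles 5.69 and 9.04). The 20 strongest peaks were all retained, and of the first 50 only the peak at MAP2K7, a stress kinase gene (15.9-fold), was lost. Retention did not differ detectably between promoter peaks (114 of 194, 58.8%) and the rest (40 of 73, 54.8%), a difference of 3.97 points (interval −8.99 to 17.2, exact p = 0.580). Among the 154 retained peaks fold enrichment in shBMAL1 cells was higher than in shControl cells at 79 and not at the rest, with a median ratio of 1.01 (quartiles 0.772 and 1.31). On the other chromosomes the median ratio was 1.15. These ratios compare 2 pooled lists, of 3 and 2 libraries, each scaled to its own background. The paper describes scaling to yeast spike-in DNA for its signal tracks and not for peak calling. It reports a lower intensity of the remaining BMAL1 peaks, so the ratios do not measure the change in binding.

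**Figure D3:**
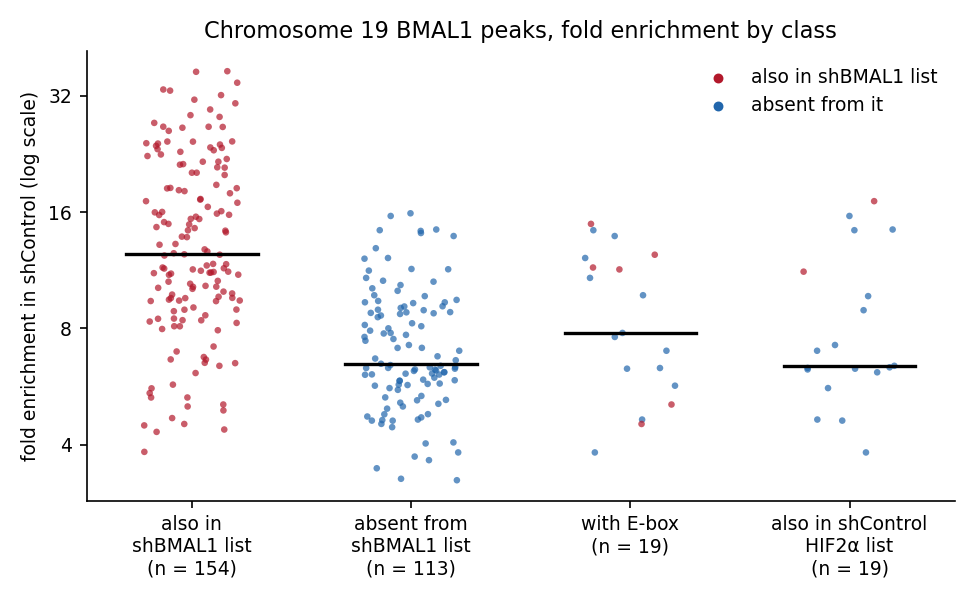
Fold enrichment in shControl cells (log scale) of chromosome 19 BMAL1 peaks, 1 point per peak, with medians as lines; red peaks were also in the shBMAL1 list and blue peaks were not. Peaks in the shBMAL1 list had a median of 12.5 and reached 37.0, those absent from it had a median of 6.49 and reached 15.9, and the E-box and HIF2α classes were mostly blue.

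E-boxes were less frequent on chromosome 19. The motif CACGTG, which reads the same on each strand, was in the summit window of 19 of 267 peaks (7.12%, interval 4.60% to 10.9%) and of 214 of 1545 peaks elsewhere (13.9%). The difference was −6.74 points (interval −9.83 to −2.66, Fisher's exact test, adjusted p = 0.00317). Against the gene-dense chromosomes (43 of 313) it was −6.62 points (exact adjusted p = 0.0144), a call lost in promoter peaks alone (−4.01 points, exact adjusted p = 0.228), in 100 bp windows (−3.60 points, exact adjusted p = 0.0885) and over whole peaks (−5.75 points, exact adjusted p = 0.0664). Within promoter peaks alone the difference from all others was −4.87 points (exact adjusted p = 0.0809). Only chromosome X had a lower share over all its peaks (0% of 31). Among windows of 200 bp at the start sites of all 20136 protein-coding genes, 6.42% held the motif, and 5.61% of those on chromosome 19 did.

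On chromosome 19 an E-box at the summit went with a lower share of retained peaks. Of the 19 E-box peaks 6 were retained (31.6%, interval 15.4% to 54.0%), against 148 of the 248 without one (59.7%). The difference was −28.1 points (interval −45.4 to −4.84, exact adjusted p = 0.0339), and within quintiles of p −18.3 points (Cochran-Mantel-Haenszel chi-square test, adjusted p = 0.0714). The pattern was not particular to chromosome 19. Elsewhere an E-box was in 40 of 547 retained peaks (7.31%) and 174 of 998 lost ones (17.4%). The shares on chromosome 19 were 3.90% and 11.5%. AP3D1, the delta subunit of the AP-3 trafficking complex, had the E-box peak of smallest p, at 12.4-fold in shControl and 8.19-fold in shBMAL1 cells. At BLOC1S3, a gene of lysosome-related organelle biogenesis, the values were 11.5-fold and 4.84-fold. TIMM44, part of the mitochondrial import motor, had 11.4-fold and 10.1-fold. At EML2 the values were 14.9-fold and 8.63-fold, and at NAPA, which encodes the SNARE recycling factor α-SNAP, 4.53-fold and 5.77-fold. The sixth, at WDR62, had 5.09-fold and 5.05-fold. Thus the fold was lower in shBMAL1 cells at 5 of the 6, with no test. Among lost E-box peaks were those at the corepressor gene TLE6 (13.9-fold), the dynein docking gene ODAD1 (12.2-fold), the RNA exosome gene EXOSC5 (14.4-fold) and the B-cell lectin gene CD22 (10.8-fold).

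Other motifs at the summits are given as descriptions and were chosen after the peaks had been examined. The GC box (GGGCGG on either strand) was in 81.3% of chromosome 19 windows, 58.1% of windows elsewhere and 47.4% of all promoter windows, or 54.2% of those on chromosome 19. Retained chromosome 19 peaks held it in 137 of 154 windows (89.0%) and lost ones in 80 of 113 (70.8%). The core of the hypoxia response element (ACGTG or GCGTG on either strand, which every E-box contains) was in 60.3% of chromosome 19 windows and 57.7% of the others, against 43.3% of promoters. CCAAT was in 31.8% of retained and 51.3% of lost windows, and in 28.2% of promoters. The AP-1 site (TGACTCA or TGAGTCA) was in 4.87% of chromosome 19 windows and 14.4% of the others, against 2.91% of promoters. The ETS core CCGGAAG was in 5.24% and 6.80%, against 10.3% of promoters. In promoter windows of chromosome 19 alone the shares were 45.3% for the hypoxia core and 33.0% for CCAAT. They were 3.31% for the AP-1 site and 16.2% for the ETS core.

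**Figure D4:**
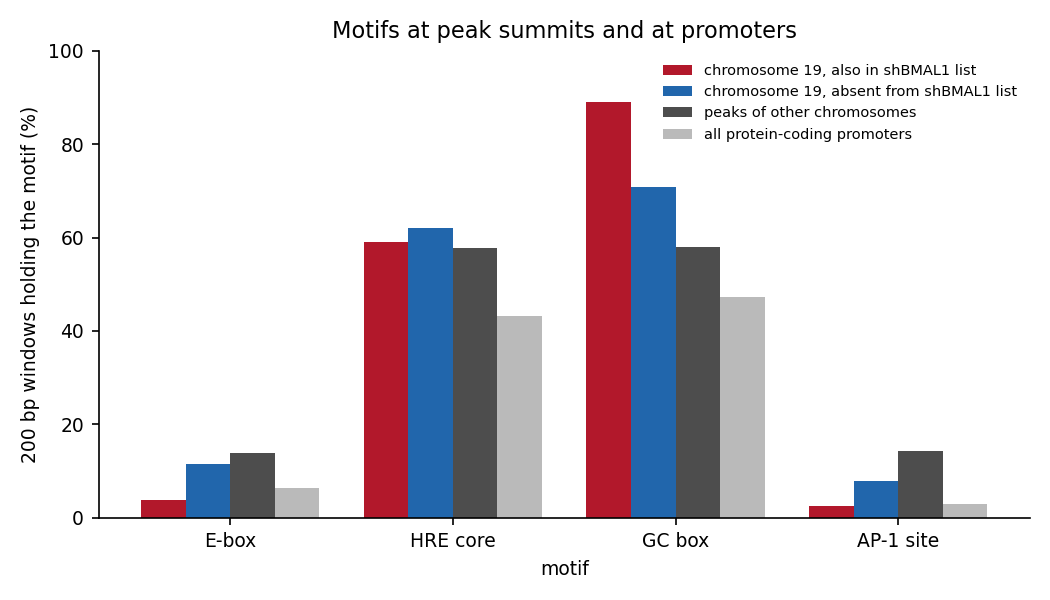
Share of 200 bp windows that hold each of 4 motifs, for chromosome 19 BMAL1 peaks in (red) and absent from (blue) the shBMAL1 list, BMAL1 peaks of other chromosomes (dark grey) and start sites of all protein-coding genes (light grey). The GC box is in 89.0% of the red and 70.8% of the blue class, while the E-box is in 3.90% and 11.5% of them.

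HIF2α shared few of these sites. In the whole list 18.5% of BMAL1 peaks overlapped a HIF2α peak of shControl cells. On chromosome 19 the number was 19 of 267 (7.12%, interval 4.60% to 10.9%), and elsewhere 316 of 1545 (20.5%, interval 18.5% to 22.5%). The difference was −13.3 points (interval −16.6 to −9.13, Fisher's exact test, adjusted p = 7.37e-08), and within quintiles of p −11.7 points (Cochran-Mantel-Haenszel chi-square test, adjusted p = 1.01e-05). In promoter peaks alone it was smaller, at −6.29 points (exact adjusted p = 0.00679). Against the gene-dense chromosomes (52 of 313, 16.6%) the difference over all peaks was −9.50 points (exact adjusted p = 0.00118). That difference was −2.26 points over peaks with p at or under 1e-20 in each list (exact adjusted p = 0.261) and −1.71 points in lists of equal length (exact adjusted p = 0.606). Chromosomes 12 (4.26% of 47 peaks) and 14 (5.71% of 35 peaks) had lower shares than chromosome 19. Seen from HIF2α, the 19 overlaps were 45.2% of its 42 chromosome 19 peaks, against 27.3% of its 1162 peaks elsewhere. Of peaks called for BMAL1 but not HIF2α in shControl cells 248 of 1477 lay on chromosome 19 (16.8%), and of those called for HIF2α but not BMAL1 23 of 868 (2.65%). That difference of 14.1 points (interval 11.9 to 16.3) had an exact adjusted p of 1.34e-28.

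The 19 shared sites are set beside the rest as a description, with no test. Their median BMAL1 fold was 6.41 against 9.59, 8 of 19 were promoter peaks against 186 of 248, and their windows had a median GC of 58.5% against 66.5%. Only 2 of 19 were retained in shBMAL1 cells, against 152 of 248. An E-box was in 5 of the 19 windows, against 14 of 248. An AP-1 site was in 6 of the 19, where all 267 chromosome 19 windows had 13. The strongest shared site was the promoter of ELL, a transcription elongation factor gene, with 17.1-fold for BMAL1 in shControl cells, 13.7-fold in shBMAL1 cells and 6.25-fold for HIF2α. The other retained site was intronic in DNM2 (11.2-fold and 6.57-fold for BMAL1, 7.95-fold for HIF2α). The sites of the next smallest p, after the ZNF254 site above, were the promoter of the RNA-binding protein gene KHSRP (9.70-fold for BMAL1, 5.25-fold for HIF2α), a site 8252 bp upstream of NTN5 (15.6-fold and 16.4-fold), the promoter of EXOSC5 (14.4-fold and 11.1-fold), and a site in an intron of ZNF627 nearest to ACP5 (14.4-fold and 8.31-fold). After these came the promoter peaks near SWSAP1 (6.41-fold and 4.58-fold) and at ZNF653 (8.92-fold and 7.17-fold). At KDM4B, a histone H3K9 demethylase gene, BMAL1 stood at 3.83-fold and HIF2α at 9.19-fold.

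No chromosome 19 peak was present in all 4 lists. Only 2 of the 267 were called for BMAL1 with each shRNA and for HIF2α in shControl cells, so this absence rests on few peaks. HIF2α was called in shBMAL1 cells at 13 of the 267 sites (4.87%), where the whole list had 14.5%. At 4 of these 13 it was also called in shControl cells, and all 4 had lost the BMAL1 call: an intronic DNM2 site (HIF2α 18.3-fold in shControl and 15.2-fold in shBMAL1 cells), the NTN5 site (16.4-fold and 5.60-fold), SIPA1L3 (9.52-fold and 6.64-fold) and KDM4B (9.19-fold and 4.68-fold). HIF2α fold enrichment was lower in shBMAL1 cells at each of the 4. These folds come from pooled lists, each scaled to its own background, and the change at the 4 sites was not tested. The remaining 9 sites had HIF2α peaks in shBMAL1 cells only, 6 of them with BMAL1 retained, at ZNF558, SERTAD1, TIMM44, RAB4B, WDR62 and LINGO3. The largest class, of 146 peaks (54.7%), was called for BMAL1 with each shRNA and never for HIF2α. The next, of 93 peaks (34.8%), was called for BMAL1 in shControl cells and in no other list. In 13 peaks (4.87%) BMAL1 and HIF2α were called in shControl cells and neither in shBMAL1 cells. Shares of these classes over the whole list are not given here, so none can be read as particular to chromosome 19.

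Sites called for both proteins in shControl cells are given here with a motif in capitals, an E-box at DNM2 (chr19:10859638-10859697) and KDM4B (chr19:4968856-4968915) and an AP-1 site at DNM2 (chr19:10859800-10859860), ACP5 (chr19:11679216-11679276) and ELL (chr19:18633209-18633269). The DNM2 peak holds both motifs.
DNM2, E-box: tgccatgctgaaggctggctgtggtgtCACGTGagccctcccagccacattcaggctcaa
KDM4B, E-box: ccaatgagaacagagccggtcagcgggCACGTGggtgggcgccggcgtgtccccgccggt
DNM2, AP-1 site: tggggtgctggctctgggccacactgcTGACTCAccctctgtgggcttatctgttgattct
ACP5, AP-1 site: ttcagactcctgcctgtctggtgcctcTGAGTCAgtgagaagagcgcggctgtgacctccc
ELL, AP-1 site: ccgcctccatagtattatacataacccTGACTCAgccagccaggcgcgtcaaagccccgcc

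Of the clock genes listed for the chromosome, DBP had a peak, and the kinase genes CSNK1G2 and GSK3A had none. DBP encodes a PAR bZIP factor that is a classical direct output of CLOCK and BMAL1. Its peak (chr19:49140795-49141185) lay 354 bp upstream of the start site at 8.01-fold and was absent from the shBMAL1 list and from each HIF2α list. No CACGTG was found anywhere in it. The sequence at its summit (chr19:49140965-49141019) is shown with the summit base in capitals.
DBP: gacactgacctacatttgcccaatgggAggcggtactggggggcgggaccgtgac

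Of the hypoxia genes, EGLN2, which encodes the HIF prolyl hydroxylase PHD1, had a promoter peak of 9.58-fold in shControl and 10.4-fold in shBMAL1 cells, without HIF2α. HIF3A and ANGPTL4 had no peak. Among AP-1 genes JUND was nearest to 1 peak, 1216 bp from a start site, of 4.96-fold and not retained, while JUNB and FOSB had none. Over all chromosome 19 genes 14.9% had a promoter peak, and counts in families this small were not tested against it. None of 13 ribosomal protein genes had a peak. Of 19 genes for mitochondrial subunits, import factors and ribosomal proteins, 4 had a promoter peak: NDUFA11 (15.7-fold) and TIMM44 were retained, and MRPL4 (6.11-fold) and MRPL34 (5.23-fold) were not. PSMD8 (8.56-fold) was the proteasome gene with a peak, of 2 on the chromosome. Of 8 RNA polymerase II and splicing genes, SNRPA (4.74-fold) and SNRPD2 (6.17-fold) had peaks, neither retained.

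Zinc finger genes were the largest listed family. Of 249 ZNF genes on the chromosome 28 had a peak and 24 (9.64%) had it in the promoter, below the 14.9% over all chromosome 19 genes and above the 6.10% over all genes, with no test. Peaks nearest to a ZNF gene numbered 26, with a median fold of 8.75, and 15 of them were retained (57.7%, as over the whole chromosome). None of the 26 held an E-box, where all chromosome 19 peaks had 7.12%. Among all peaks nearest to a ZNF gene or in its promoter, those of smallest p were at ZNF524, in a promoter shared with FIZ1, and at ZNF846 (28.2-fold in shControl and 20.3-fold in shBMAL1 cells), ZNF558 (26.5-fold and 25.4-fold) and ZNF557 (22.3-fold and 26.5-fold). The peaks at ZNF524, ZNF558 and ZNF557 have another gene as the nearest and are not among the 26. Lost peaks included those of ZNF320 (8.95-fold), ZNF816 (8.17-fold) and ZNF845 (8.78-fold). Zinc finger genes and the MBD3L genes beside ZNF557 occur in near-identical copies whose reads could be shared in alignment, so the values at these genes are uncertain. Without peaks nearest to ZNF genes the retention difference from the other chromosomes was 22.4 points.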

How the data were processed

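Per the labels, 786-O libraries were sequenced after CUT&RUN. The authors aligned reads to hg19 and to yeast (sacCer3) with Bowtie2 2.5.3, removed duplicates, called peaks with MACS2 2.2.9.1 (p of 1e-5) and removed blacklisted regions with bedtools 2.31.1. The 4 deposited lists give, per pooled group, peak position, fold enrichment (a ratio over local background), −log10 p, −log10 q and summit. The authors' p-value and q-value enter here only as −log10 values. The weakest peak of the shControl BMAL1 list had a −log10 p of 8.64, so that list was in effect stricter than 1e-5. The lists give no depth.

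Peaks were joined by overlap of at least 1 bp and annotated with GENCODE 44 lifted to GRCh37, whose coordinates equal hg19. Intervals are 95% Wilson or Newcombe and cover counting error only. The 11 two-sided Fisher's exact tests (scipy 1.17.1) were adjusted together, with an adjusted p under 0.05 called. Each alternative was adjusted singly, with its p in place of the main p among the 11. The number of alternatives is therefore not corrected for. The test functions were tried on simulated data. Named genes were the 10 peaks of smallest p, up to 10 HIF2α overlaps, the first 5 retained and lost E-box peaks, the 3 largest clusters, the 3 most distant peaks and listed families. MAP2K7, shared promoters, further ZNF genes, and peaks called in 3 lists or with HIF2α in shBMAL1 cells only were added after their values were seen. Members and lists were chosen with earlier results of these data known. IgG libraries were not analysed here. An item that the naming rule selects is not reported here.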

Additional observations from a re-analysis of the deposited data

Results flagged for a closer look

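The effect of BMAL1 depletion on peak calls differed between classes of BMAL1 peak in 3 comparisons, each by a Fisher's exact test of the difference itself. Retention was 22.3 points higher on chromosome 19 than on the other chromosomes and 20.3 points higher than on chromosomes 17, 11 and 16. Within chromosome 19 it was −28.1 points for peaks with an E-box against those without. On the other chromosomes, too, lost peaks held an E-box more often (17.4%) than retained ones (7.31%). Peak strength moved with all 3: within quintiles of p the differences were 6.20, 3.64 and −18.3 points in the same order, and only the first of these passed the test. The lists are pooled, so no library could be examined for lying apart from its group.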

How the results depend on the processing

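Across 13 results and 61 alternatives, of which 4 were chosen after seeing the data, 38 kept direction and side of the threshold or stayed within the interval. With lists of equal length the retention difference was 6.30 points against all other chromosomes and −1.02 against the gene-dense ones, and the HIF2α difference from the latter −1.71. With p at or under 1e-20 these last were 6.90 and −2.26, and promoter share differed by 4.69 and −0.75 points. Within quintiles of p retention differed by 3.64 points from the gene-dense chromosomes and by −18.3 between E-box and other peaks. E-box share differed from all others by −4.87 points in promoter peaks, and from the gene-dense chromosomes by −4.01 in promoter peaks, −3.60 in 100 bp windows and −5.75 over whole peaks. Promoter share against the gene-dense chromosomes became 11.2 points with 2500 bp promoters and 10.7 with coding start sites. The promoter difference in retention within chromosome 19 turned to −0.339 (p at or under 1e-20), −0.271 (equal lengths) and −1.83 points (quintiles). Peaks in clusters made up 37.5% at 50 kb, 86.9% at 250 kb and 49.5% with p at or under 1e-20. Genes with a promoter peak made up 18.6% with 2500 bp promoters and 11.7% with p at or under 1e-20. Stricter and equal-length lists hold fewer peaks, and the causes were not tested otherwise.

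No paired analysis was possible because each group has 1 pooled list whose peaks carry no replicate number. For the same reason leaving out a replicate was not run. A peak absent from a list was not called, and how much signal lay there is not analysed here.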

Other observations

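Of the 162 chromosome 19 BMAL1 peaks in shBMAL1 cells, 153 (94.4%) overlapped a shControl BMAL1 peak and 9 did not. The same share over the whole shBMAL1 list is not given here, so this count cannot be read as particular to chromosome 19. Fold enrichment of the 9 was 5.53 to 12.9, with a median of 7.88, and 7 of them lay in promoters. The strongest lay 3669 bp upstream of ZNF665 (12.9-fold), and 2 lay at LTBP4, which encodes a binding protein of latent TGF-β (9.72-fold and 9.002-fold).

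HIF2α had 23 chromosome 19 peaks in shControl cells at which BMAL1 was not called, with folds of 3.33 to 13.0 and a median of 6.10. HIF2α was called again in shBMAL1 cells at 9 of these 23 sites and at 4 of the 19 shared with BMAL1, or 13 of all 42. Over the whole HIF2α list, the paper reports that only a minority of peaks were not found again after BMAL1 depletion. That share was not computed here, so the counts are given as a description. The difference between these shares was not tested.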
